A study of Homo sapiens with 12 samples.

Results

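Rarely included exons are internal exons that most transcripts of their gene skip. Here they were chosen by measured values: exons 51 to 499 nt long whose splicing event had 100 or more reads in each of 6 RNA-seq libraries and whose mean inclusion level over those libraries was 1 to 10%. The rule found 1930 events, which are 1891 exons after keeping the most counted event of each exon, out of 114816 exon events in all and 68863 with that depth. The inclusion level is the percent of transcripts, after correction for the length over which reads can fall, that contain the exon. It is an average over all cells of a library, in which a few cells with the exon in many transcripts and many cells with it in a few cannot be told apart. Since inclusion chose the exons, their low level is not a result.

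The series compared 2 human prostate cancer lines, PC3E and GS689.Li (GS689 below). Both descend from PC3 cells and are labelled wild type; PC3E is known as the epithelial and GS689 as the mesenchymal of the pair. Both grew in DMEM/F12 with serum, non-essential amino acids and G418, were plated overnight with no other treatment, and gave 3 RNA-seq and 3 RASL-seq libraries per line; RASL-seq is a targeted assay that ligates probe pairs across splice junctions and counts the products. The RNA-seq table numbers its libraries as set 1 and set 2, with 3 in each, and does not name the line of a set, so the sets are compared here as numbered and no line is given to them. Nothing says that libraries of a line came from separate cultures, so the p-values rest on a spread among libraries that may be only technical.

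A poison exon is an exon whose inclusion brings a stop codon into the reading frame well before the last exon junction. A ribosome that stops there leaves a junction complex downstream, which marks the transcript for nonsense-mediated decay, so including the exon lowers the output of the gene without making another protein. Genes of the SR family and other RNA-binding proteins are known for such exons, through which several of them limit their own level. Decay removes the transcripts with the exon, so steady-state RNA shows less of it than was spliced. An exon whose length is divisible by 3 can instead add amino acids and leave the rest of the protein in frame.

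The sequences that carry this difference are shown first. They are the 8 exons, among those named by the rule for this report, of at most 300 nt that bring an in-frame stop within the exon, outside 1 chromosome that was left out. Each is written from its first to its last base in the direction of transcription, as in the matched exon of GENCODE release 29, with the first in-frame stop in capitals.
RPS9: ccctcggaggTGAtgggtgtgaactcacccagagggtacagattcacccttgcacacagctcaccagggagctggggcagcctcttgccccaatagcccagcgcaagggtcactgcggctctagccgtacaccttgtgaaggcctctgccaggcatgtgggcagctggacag
SNRPD2: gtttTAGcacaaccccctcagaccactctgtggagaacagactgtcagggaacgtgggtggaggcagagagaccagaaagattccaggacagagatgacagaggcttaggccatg
RBM3: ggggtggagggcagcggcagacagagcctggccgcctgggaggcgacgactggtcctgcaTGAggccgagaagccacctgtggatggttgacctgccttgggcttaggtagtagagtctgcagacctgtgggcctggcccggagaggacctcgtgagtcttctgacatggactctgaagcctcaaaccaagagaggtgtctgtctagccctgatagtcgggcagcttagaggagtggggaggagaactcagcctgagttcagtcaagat
HNRNPL: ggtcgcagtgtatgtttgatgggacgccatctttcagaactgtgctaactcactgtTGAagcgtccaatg
SRSF7: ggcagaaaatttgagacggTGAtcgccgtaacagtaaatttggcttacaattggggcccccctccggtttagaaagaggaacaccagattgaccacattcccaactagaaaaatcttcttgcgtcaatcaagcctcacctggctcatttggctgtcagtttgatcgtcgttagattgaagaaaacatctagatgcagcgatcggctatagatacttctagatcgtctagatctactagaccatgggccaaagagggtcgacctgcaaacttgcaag
BRD9: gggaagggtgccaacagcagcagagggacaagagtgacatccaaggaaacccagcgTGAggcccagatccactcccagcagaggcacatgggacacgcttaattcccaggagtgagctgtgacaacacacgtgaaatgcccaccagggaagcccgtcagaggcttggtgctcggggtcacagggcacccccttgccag
MBNL1: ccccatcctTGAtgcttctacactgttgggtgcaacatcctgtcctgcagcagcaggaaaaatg
DCAF15: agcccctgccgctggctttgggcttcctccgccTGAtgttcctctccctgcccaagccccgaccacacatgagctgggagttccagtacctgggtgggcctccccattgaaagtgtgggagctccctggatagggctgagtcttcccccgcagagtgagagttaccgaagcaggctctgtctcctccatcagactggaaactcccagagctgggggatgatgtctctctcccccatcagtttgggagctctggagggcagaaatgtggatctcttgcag
On hg19 these exons are chr19:54710421-54710592 (plus strand) in RPS9, chr19:46192491-46192605 (minus) in SNRPD2, chrX:48434203-48434471 (plus) in RBM3 and chr19:39332253-39332322 (minus) in HNRNPL. The others are chr2:38976040-38976315 (minus) in SRSF7, chr5:868722-868919 (minus) in BRD9, chr3:152175919-152175982 (plus) in MBNL1 and chr19:14063842-14064120 (plus) in DCAF15. The stop begins at base 5 of the exon in SNRPD2, 10 in MBNL1, 11 in RPS9, 20 in SRSF7, 34 in DCAF15, 57 in HNRNPL and in BRD9, and 61 in RBM3. It lies from 127 nt (MBNL1) to 1858 nt (DCAF15) before the last exon junction. The exons of SRSF7, BRD9 and DCAF15 have lengths divisible by 3 and still stop the frame. MBNL1 is annotated as coding in another transcript and the other 7 exons as not coding.

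For contrast, 3 exons that keep the annotated stop are shown. They were chosen after their values were seen, as the exons called in both assays (below) that keep the frame; with no stop in frame, they carry no capitals.
RAC1: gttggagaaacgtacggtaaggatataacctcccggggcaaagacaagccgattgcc
NEDD4L: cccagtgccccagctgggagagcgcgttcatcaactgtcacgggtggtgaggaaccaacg
ERBIN: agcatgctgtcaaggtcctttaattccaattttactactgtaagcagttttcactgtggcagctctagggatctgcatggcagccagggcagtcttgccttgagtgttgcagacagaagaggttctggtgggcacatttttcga
They lie on hg19 at chr7:6438293-6438349, chr18:56002710-56002769 and chr5:65364705-65364848, all on the plus strand and annotated as coding. The RAC1 exon adds 19 codons to this small GTPase, as the known form Rac1b has it. Those of NEDD4L, a ubiquitin ligase, and ERBIN, a partner of the receptor ERBB2, add 20 and 48.

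Among the 1891 exons, 723 (38.2%) had a length divisible by 3, 588 (31.1%) left a remainder of 1 and 580 (30.7%) a remainder of 2. Exons of the same depth and length range at 10 to 90% inclusion were divisible in 1465 of 2997 cases (48.9%). Those above 90% were divisible in 16120 of 40416 (39.9%) and those under 1% in 733 of 2021 (36.3%). The excess of divisible lengths thus stood at intermediate inclusion, and rarely included exons were close to the constitutive ones. The exons have a median length of 114 nt (quartiles 86.0 and 151), against 117 nt at 10 to 90%. Their left and right introns have medians of 1872 and 1838 nt, against 2141 and 2184, and their median GC content is 51.2%, against 51.4%. Their mean inclusion had a median of 2.93% and quartiles of 1.74% and 5.23%. Summed over the libraries, a median of 138 inclusion reads stood behind an exon, with 14 the lowest.

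At the limits of the rule, SEC22C (63 nt) at 1.0007% and UTP18 (70 nt) at 1.0007% were just inside, and NUP88 at 0.9980% and LINC01515 (62 nt) at 0.9951% just outside. At the upper limit DEF8 (222 nt) at 9.9357% and CHD1 (264 nt) at 9.9241% were inside, and RHOC (116 nt) at 10.0351% and CANT1 (171 nt) at 10.0542% outside. Of the exons, 1827 matched 1 gene by structure, in 1374 genes, of which 320 held 2 or more; HDLBP held 7. They are not all separate observations: 321 overlap another of them, and 512 share their skipping junction, and so their skipping reads, with another. For 55 exons a different event of the same exon exceeded 10%.

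Annotation set these exons apart from those at intermediate inclusion. Of the 1827 matched exons, 1352 (74.0%) are annotated as not coding, 343 (18.8%) as coding and 132 (7.22%) as partly coding. At 10 to 90% inclusion 1838 of 2857 (64.3%) are coding and 802 (28.1%) not coding. In 603 of the rarely included exons (33.0%) the exon is known from transcripts annotated for nonsense-mediated decay and from no protein coding one, against 227 (7.95%). The profile is not particular to the 1 to 10% range. Under 1% inclusion, 1525 of 1952 matched exons (78.1%) are not coding. There 789 (40.4%) are known from decay transcripts and no protein coding one.

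Each exon was then placed into the annotated coding transcript that has its skipping junction, and the frame was read on. Of the 1891 exons, 1375 fell between coding sequence, 384 before the start codon and 9 after the stop codon, and 123 could not be placed. In 1007 of the 1375 (73.2%) inclusion gave a premature stop, here 1 more than 50 nt before the last exon junction. In 257 (18.7%) the annotated stop was kept, and 111 gave another stop that was not premature. At 10 to 90% inclusion the premature share was 364 of 1300 (28.0%), and there 1219 of 2997 exons could not be placed, so the shares cover unequal parts of the classes.

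Lengths not divisible by 3 gave a premature stop in 735 of 826 exons (89.0%), against 285 of 463 (61.6%) at 10 to 90%. In 608 of the 826 the stop lay within the exon and in 218 after it. Among lengths divisible by 3, where a frame shift plays no part, 272 of 549 (49.5%) had a premature stop, against 79 of 837 (9.44%) at intermediate inclusion and 30 of 1133 (2.65%) above 90%. In that last class 38230 of 40416 exons (94.6%) could not be placed, so its shares cover only the few with an annotated skipping junction. Exons under 1% were close to the rarely included ones, with 959 of 1041 (92.1%) and 350 of 629 (55.6%). A length not divisible by 3 shifts the frame, so by definition 0 of the 826 other rarely included exons kept the annotated stop. A length divisible by 3 was not enough to keep it. About as many of the 549 rarely included exons with a divisible length were premature as kept the annotated stop (257). These shares are descriptions, with no test.

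**Figure D1:**
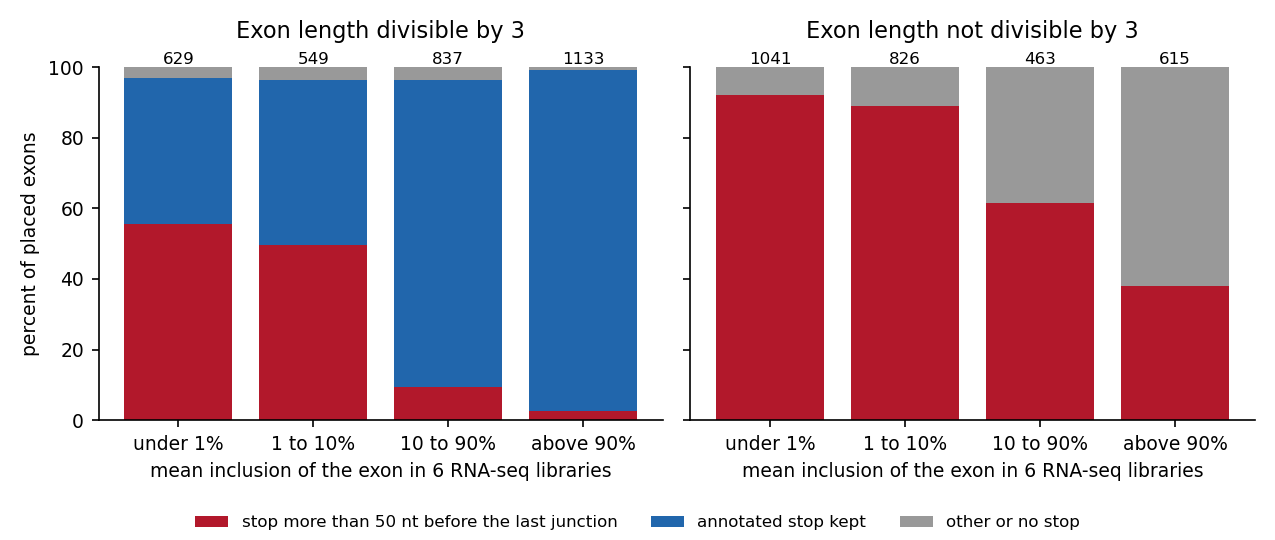
Percent of placed exons (vertical axis) by what inclusion does to the reading frame, for 4 classes of mean inclusion (horizontal axis), with lengths divisible by 3 on the left and others on the right; the number over each bar is its count of exons. The premature share of divisible lengths falls from 49.5% in the rarely included class to 9.44% at 10 to 90%.

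The reading frame itself was compared with the other frames of the same exon. Of the 549 rarely included exons with divisible length, 259 (47.2%) had no stop in the reading frame, against 153 (27.9%) and 143 (26.0%) with no stop in the frames shifted by 1 and 2 bases. At 10 to 90% inclusion 729 of 837 (87.1%) were open in the reading frame and 221 (26.4%) and 164 (19.6%) in the others. Split by annotation, 241 of 244 exons annotated as coding (98.8%) were open in the reading frame, and 17 of 274 annotated as not coding (6.2%); annotators use the frame to assign coding status, so this split is not independent. The first stop was within the exon in 900 of the 1375 placed exons. It was TGA in 461 (51.2%), TAG in 219 (24.3%) and TAA in 200 (22.2%), and in 20 it crossed a junction. Premature stops left a median of 31.4% of the coding sequence before them (quartiles 14.5% and 63.2%) and lay a median of 698 nt before the last junction.

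Before the sets are compared, 1 library stood apart. Library 2 of set 1 had the lowest inclusion of its set in 851 of 1891 exons (45.0%), against 26.7 and 28.1% for libraries 1 and 3. The mean chi-square of the inclusion counts per exon was 7.16 and 5.46 for its pairs with libraries 1 and 3, 2.77 for that pair, and 2.14 to 2.63 for the pairs of set 2. The counts of calls over all the exons, by outcome, by length and, where they change, by gene list are given with and without it. The libraries hold 93842790 to 120853566 counts in the table, where a read can count in several events. In RASL-seq the pairs with replicate 2 were the higher ones in both lines. They stood at 5.03 and 3.04 in PC3E, against 1.8 for the pair of replicates 1 and 3. In GS689 they stood at 3.38 and 2.67, against 1.98. As a check of the line labels, VIM, the mesenchymal filament protein vimentin, had 172 to 210 CPM, its counts scaled to the same total in each library, in the PC3E and 4190 to 4290 in the GS689 RASL-seq libraries. The epithelial junction gene LSR had 83.4 to 99.0 and 0 to 3.25. Over the marker lists, the 4 of 10 epithelial genes with events summed to 828 to 1240 CPM in PC3E and 341 to 423 in GS689. The 2 of 7 mesenchymal genes summed to 172 to 210 and 4200 to 4320. No prostate luminal or haematopoietic marker has an event in that table.

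Between the RNA-seq sets, variable exons of CD44 and exons of MGLL and ADAM15, which keep the frame, were lower in set 2, and exons of BIN1, CLIP1 and ERBIN, which also keep it, were higher. A call needs an adjusted p under 0.05 over all 68863 events in the limma-moderated quasi-binomial model and a change in the odds of inclusion of 2-fold or more. Of the 1891 exons 76 (4.02%) were called, where the background over all events was 1.19%, and 229 of 2997 (7.64%) were called at 10 to 90% inclusion. Exons lower in set 2 were the larger part, 56 (2.96%) against a background of 0.598%, with 20 (1.06%) higher, against 0.595%. The number was 113 without library 2 of set 1 (82 lower, 31 higher) and 46 without library 3 of set 2 (34 lower, 12 higher). With limma on the log2 ratio at a pseudocount of 0.5 it was 30, of which 17 were lower. The 3 values of one set all lay above those of the other in 424 of 1891 exons (22.4%), against a background of 9.4%. The rule caps the mean over both sets, so a large difference could occur only where 1 set was near 0. It also asks for a mean of 1% or more, so an exon near 0 in 1 set is a member only through the set where it is high. The sizes of the largest falls and rises below, and the shares called beside the background, thus depend in part on the rule.

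By what inclusion does, 30 of the 1007 exons with a premature stop were called (2.98%; 22 lower in set 2, 8 higher), and 23 of the 257 that keep the annotated stop (8.95%; 17 lower, 6 higher). The median size of the log2 odds ratio was 0.44 and 0.52 in these groups, at a median of 2333 and 2661 reads per exon. The difference between the shares was not tested. Without library 2 of set 1 the counts were 42 and 27; without library 2 of set 2 they were 18 and 17, and without library 3 of set 2 both were 17. With limma at a pseudocount of 0.5 they were 8 (4 lower, 4 higher) and 13 (7 lower, 6 higher), with no excess of lower exons among those with a premature stop. Before the start codon 15 of 384 were called, and 33 without library 2 of set 1. Of exons with a length divisible by 3, 36 of 723 (4.98%) were called, and of the others 40 of 1168 (3.42%); without that library these counts were 44 and 69.

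CD44, the hyaluronan receptor, held the exons with the largest fall. The 90 nt exon (chromosome 11, 35231512 to 35231601) was included at 12.5, 7.70 and 12.2% in set 1 and at 0.0433, 0 and 0% in set 2. Set 2 had 3 inclusion reads of 10515 and set 1 had 294 of 1593, so the share was 647 times as high in set 1 (exact interval from counting error, 219 to 3150). The 129 nt exon stood at 6.68, 2.0 and 7.14% and at 0.0136, 0 and 0.055%, a log2 odds ratio of -7.72 (SE 1.09). Both are coding exons of the variable region and keep the frame, and in both the sets were far apart. Set 2 had the exons at or near 0. For the 90 nt exon it also had the more reads of the event, almost all of them skipping reads, and these do not measure the level of CD44.

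MGLL, the lipase of monoacylglycerols, included a 78 nt coding exon at 19.3, 17.1 and 17.9% in set 1 and at 0.0742, 0.467 and 0% in set 2 (log2 odds ratio -6.85, SE 1.07, adjusted p = 1.1e-38). ADAM15, a membrane metalloprotease, held a pair of overlapping forms of the same coding exon, 75 and 72 nt. The 75 nt form stood at 9.23, 10.7 and 7.92% against 0.925, 0.47 and 0.553%. The 72 nt form stood at 9.29, 11.2 and 8.53% against 1.47, 0.759 and 0.864%. They share reads and moved the same way. The 60 nt exon of NEDD4L went from 5.06, 6.43 and 8.23% in set 1 to 0.675, 1.15 and 0.793% in set 2, with no overlap between the sets.

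BRD9, the bromodomain subunit of a chromatin remodelling complex, had the largest fall of an exon with a premature stop. Its 198 nt exon, printed above, stood at 6.84, 12.3 and 9.76% in set 1 and at 1.26, 1.94 and 1.5% in set 2 (log2 odds ratio -2.74, SE 0.36, adjusted p = 1.28e-14), and kept its call in all 13 alternatives run. The other falls named by the rule were in KIAA1109 (201 nt; 1.7, 3.88 and 5.57% against 0, 0.958 and 0.285%), in HSPD1 and in FEZ2. HSPD1 encodes the mitochondrial chaperonin HSP60. Its 180 nt exon lies before the start codon and stood at 1.93, 1.5 and 2.09% against 0.156, 0.343 and 0.266%. The 81 nt coding exon of FEZ2 stood at 17.2, 16.6 and 13.3% against 2.73, 3.72 and 3.46%. In none of these 4 exons did the sets overlap. KIAA1109 lost its call without library 3 of set 1 (adjusted p = 0.123) and without library 1 of set 2 (0.156).

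BIN1, a protein that bends membranes, had the largest rise in set 2. Its 93 nt coding exon stood at 0.824, 0.166 and 0.173% in set 1 and at 2.32, 6.16 and 9.98% in set 2 (log2 odds ratio 4.11, SE 0.72, adjusted p = 6.65e-12). The 105 nt exon of CLIP1, which binds growing microtubule ends, stood at 0.948, 0.361 and 1.54% and at 18.5, 8.91 and 14.9%. Both keep the frame, and in both every set 2 library was above every set 1 library. ERBIN stood at 1.74, 1.91 and 2.77% and at 9.33, 14.3 and 10.8%. ITGB4, the integrin beta 4 chain of hemidesmosomes, included a 159 nt exon at 0.503, 0.75 and 0.831% and at 4.16, 5.4 and 3.76%. The set 2 values were thus several-fold higher in each, from a level of 1.54% or below in BIN1, CLIP1 and ITGB4. RASL-seq had 2 inclusion counts of 1433 for the ITGB4 exon, too few for its test (below). LAS1L, which takes part in ribosomal RNA processing (51 nt; 0.556, 3.54 and 1.13% against 8.02, 8.74 and 9.43%), and the chloride channel gene ANO1 (78 nt; 0.657, 0.0542 and 0.436% against 2.29, 1.72 and 2.58%) complete the rising exons that keep the frame.

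Rising exons with a premature stop were those of PUF60, DDX11 and DCAF15. PUF60 is itself a splicing factor. Its 152 nt exon stood at 2.1, 1.39 and 1.52% in set 1 and at 5.76, 9.44 and 6.88% in set 2 (log2 odds ratio 2.2, SE 0.33, adjusted p = 1.83e-08). DCAF15, a substrate receptor of a ubiquitin ligase, had its 279 nt exon at 0.377, 0.877 and 0% and at 3.86, 3.12 and 2.19%. DDX11, a DNA helicase, had a 188 nt exon at 0.723, 0.678 and 0.414% and at 3.98, 1.88 and 3.97%. The PUF60 call held in all 13 alternatives. Those of DCAF15 (adjusted p = 0.0422) and DDX11 (0.044) were lost without any 1 of 5 libraries, all but library 2 of set 1, with the highest adjusted p at 0.327 and 0.355. The 175 nt exon of DDX39B, a helicase of splicing and RNA export, lies before the start codon. It stood at 0.533, 0.172 and 0.359% against 1.94, 1.71 and 3.18%, and lost its call without library 3 of set 1 (0.153) or of set 2 (0.246).

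**Figure D2:**
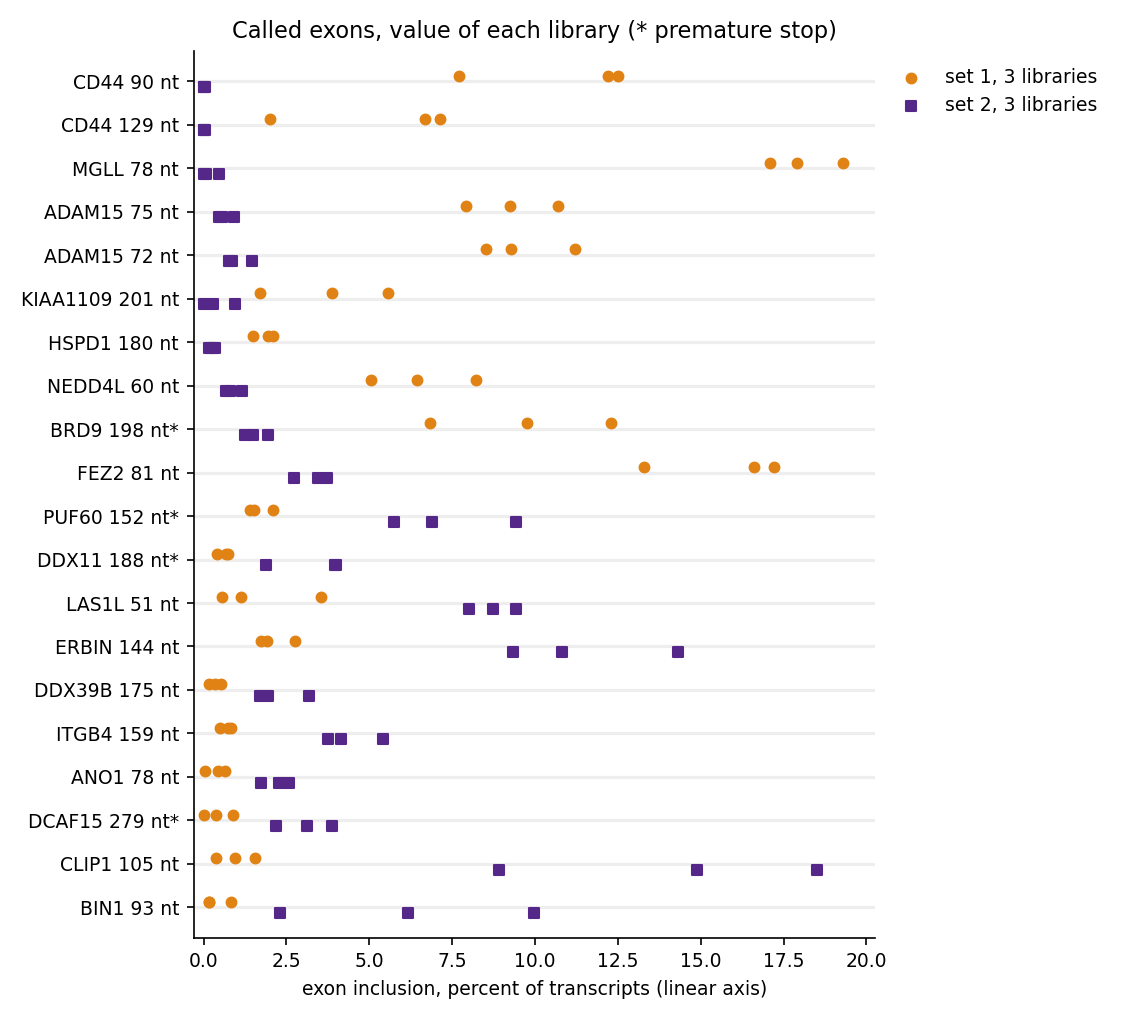
Inclusion of the 20 exons named among the calls (horizontal axis, percent of transcripts), with 1 point per RNA-seq library, circles for set 1 and squares for set 2; stars mark exons whose inclusion gives a premature stop. In every row the 3 points of one set lie clear of those of the other, as in CD44 (90 nt), where set 1 is at 7.70% or above and set 2 at 0.0433% or below.

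Other called exons with a premature stop, chosen after their values were seen, show the depth behind low levels. PPIA, which encodes cyclophilin A, was the most deeply covered of them, with 386240 reads. Its 67 nt exon stood at 1.62, 1.72 and 1.49% in set 1 and at 2.95, 3.24 and 3.3% in set 2, a log2 odds ratio of 1.01 (SE 0.092; adjusted p = 1.63e-25) just past the limit of 1. Its call was lost without library 3 of set 1 and without library 2 or 3 of set 2. TXNL4A, a protein of the U5 small nuclear ribonucleoprotein, had a 70 nt exon at 5.77, 8.91 and 8.24% and at 1.35, 2.12 and 2.42%. Its stop lies 51 nt before the last junction, just past the limit of 50. The 116 nt exon of NOP56, a core protein of box C/D ribonucleoproteins, stood at 3.17, 3.96 and 4.9% and at 1.44, 1.3 and 1.31%.

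The gene lists of splicing factors held some of the exons, and whether this exceeds their share of all events was not tested. Among SR and TRA2 proteins, which bind exonic enhancers, 12 exons in 6 genes were rarely included, at 1.43 to 8.04%, and 11 of the 12 gave a premature stop. None was called in the limma-moderated model, and 1 had an adjusted p under 0.05. An unadjusted p under 0.05 was seen in 6, beside 368 of all 1891 exons and 7149 of all 68863 events. The median log2 odds ratio of the 12 was 0.53 and 11 were above 0. The median was -0.07 over all 1891 exons and also -0.07 over all events. Without library 2 of set 1 the median was 0.54, with 11 above 0 and 1 called, and 1 was also called without library 1 of set 1. Several of the 12 share reads, since SRSF4, SRSF7 and TRA2A each hold overlapping forms.

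SRSF3, the smallest SR protein, had its 456 nt exon at 2.52, 2.36 and 1.91% in set 1 and at 2.76, 4.14 and 3.4% in set 2 (log2 odds ratio 0.62, SE 0.20, adjusted p = 0.105). SRSF7 had forms of 449 and 276 nt that share their 3′ end. The 449 nt form stood at 3.8, 4.73 and 3.18% and at 4.29, 5.1 and 3.91%. The 276 nt form, printed above, stood at 1.58, 1.79 and 1.11% and at 1.57, 1.69 and 1.55%, and neither passed. SRSF2, whose 104 nt exon lies after the stop codon and was placed there, stood at 3.82, 7.16 and 4.15% and at 6.28, 9.53 and 7.66%. Its adjusted p was 0.00106 and its log2 odds ratio of 0.72 missed the limit of 1. Without library 2 of set 1, the highest of set 1 here, it was called (adjusted p = 4.06e-11). In SRSF3 the sets did not overlap, and in SRSF2 and both SRSF7 forms they did.

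The exons of TRA2A and SRSF4, chosen after their values were seen, add to the list. TRA2A, an activator of exon inclusion, had overlapping exons of 301 nt (4.51, 7.78 and 6.85% against 9.81, 9.13 and 10.1%) and 79 nt, and a 90 nt exon elsewhere at 2.45, 4.03 and 2.8% against 1.84, 1.47 and 1.85%. The 90 nt exon was the 1 of the 12 below 0. SRSF4 held 4, of which the 195 nt form stood at 2.23, 0.218 and 0.859% against 2.72, 2.35 and 2.5%. None of these passed, with adjusted p from 0.13 to 0.752 in the limma-moderated model.

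Of the hnRNP genes, whose proteins package and splice nuclear RNA, 8 exons in 6 genes were in the range, 3 with a premature stop and 0 called by the rule; 4 had an unadjusted and 2 an adjusted p under 0.05. HNRNPA1 had the most deeply covered exon of all lists. It is a 156 nt coding exon that keeps the frame and lengthens the glycine-rich part, and stood at 8.8, 8.48 and 8.95% in set 1 and at 9.69, 9.72 and 9.34% in set 2 (log2 odds ratio 0.14, SE 0.11, adjusted p = 0.537). HNRNPC had exons before the start codon. The 163 nt exon stood at 2.88, 2.53 and 3.32% and at 4.64, 5.64 and 5.37% (log2 odds ratio 0.85, SE 0.16, adjusted p = 1.2e-05). The 168 nt exon stood at 0.61, 0.928 and 0.78% and at 0.944, 2.02 and 1.6% (0.96, SE 0.24, adjusted p = 0.00428), and was called without library 2 of set 1 and without library 1 of set 2. Both HNRNPC exons thus passed on p and stayed under the odds limit. Without library 2 of set 1, 2 of the 8 were called, the 168 nt exon and a lower 88 nt exon of HNRNPC (2.83, 1.88 and 3.53% against 2.01, 1.25 and 1.5%), which went from a log2 odds ratio of -0.796 (adjusted p = 0.377) to -1.04 (0.0319). The 70 nt exon of HNRNPL, printed above, stood at 0.774, 1.68 and 0.69% and at 1.07, 1.14 and 1.49%, with overlapping sets, and the 117 nt exon of RALY before the start codon at 4.01, 2.89 and 3.24% and at 2.78, 2.2 and 2.06%.

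Of the spliceosome and other splicing regulators, 30 exons in 24 genes were in the range and 25 gave a premature stop. PUF60 was the 1 called, and 7 had an unadjusted p under 0.05. SNRPD2, a core Sm protein, had its 115 nt exon at 1.28, 1.07 and 1.27% in set 1 and at 1.65, 1.64 and 1.43% in set 2. These sets did not overlap but the adjusted p was 0.477. The RBM family had 14 exons in 9 genes, 7 with a premature stop, 0 called and 4 with an unadjusted p under 0.05. RBM3, a cold-induced protein, held overlapping exons of 269 nt (2.61, 4.07 and 3.06% against 2.51, 2.88 and 1.23%) and 162 nt (1.84, 2.27 and 2.05% against 1.67, 1.77 and 0.848%), of which the longer gives the premature stop. Splicing kinases had 3 exons, in CCNL2, PRPF4B and SRPK1, all 3 with a premature stop and 0 called, 1 with an unadjusted p under 0.05. With all libraries no exon of these 3 lists other than that of PUF60 changed by the rule; without library 2 of set 1 the 121 nt exon of PRPF18, a splicing factor of the second step, was also called, lower in set 2 (log2 odds ratio -1.9 with all libraries, adjusted p = 0.0573, and -2.04 without, 0.011).

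Genes reported to have poison exons had 21 in 10 genes, 19 with a premature stop, and BRD9 held both called ones, the 198 nt exon and a 100 nt exon at 12.5, 9.42 and 21.3% against 4.2, 4.81 and 4.4%. With limma at a pseudocount of 0.5 the list had 1 call, and without library 2 of set 1 it had 3, SRSF2 being the added one. An unadjusted p under 0.05 was seen in 14 of its 21 exons and an adjusted one in 3. The unadjusted count was 368 over all 1891 exons and 7149 over all 68863 events. The genes of this list include all 6 of the SR and TRA2 list, so these lists share exons and are not separate observations. Ribosomal protein genes had 3 exons, in RPS9, RPL17 and RPLP0, and 0 were called, 0 with an unadjusted p under 0.05 as well. RPS9 had 63083 reads and stood at 2.85, 2.62 and 2.55% in set 1 and at 2.06, 2.32 and 2.14% in set 2 (adjusted p = 0.473). The 100 nt exon of BRD9 was chosen after its values were seen.

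**Figure D3:**
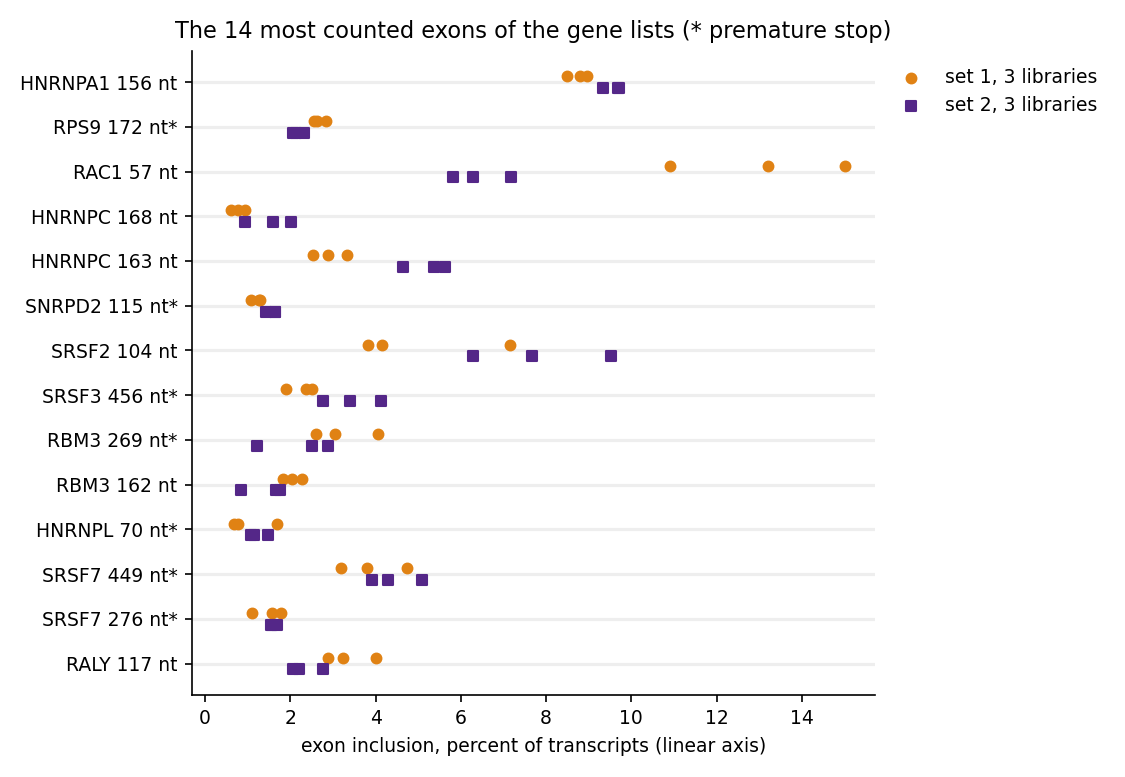
Inclusion of the 14 most deeply covered exons of the gene lists (horizontal axis, percent of transcripts), with 1 point per RNA-seq library, circles for set 1 and squares for set 2; stars mark a premature stop. HNRNPA1 is near 9% in all 6 libraries, and RAC1 is the 1 exon of the 14 called, at 10.9% or above in set 1 and 7.18% or below in set 2.

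The list of genes with exons known from epithelial to mesenchymal transition and from ESRP splicing regulators differed from these in kind. It takes any rarely included exon of those genes, so an exon in it need not be a known one. Of its 14 exons in 11 genes none gave a premature stop, 10 kept the annotated stop and 12 had a length divisible by 3. In 5 inclusion was lower in set 2 and in 0 higher: both CD44 exons, NEDD4L (60 nt), RAC1 and EXOC7. Over all events 0.598% were called lower, and 2.96% of the 1891 exons. Of the 14, 4 had a log2 odds ratio above 0; 3 were called with limma at a pseudocount of 0.5, and 6 without library 2 of set 1, where the 87 nt exon of CTNND1 (p120 catenin) joined them (adjusted p = 0.00253). RAC1, with 44093 reads, stood at 15.0, 10.9 and 13.2% in set 1 and at 6.29, 5.81 and 7.18% in set 2 (log2 odds ratio -1.12, SE 0.13, adjusted p = 1.14e-15). EXOC7, an exocyst subunit, had a 69 nt exon at 14.4, 4.79 and 10.8% and at 4.56, 3.71 and 4.62%, and was chosen after its values were seen. Without library 1 of set 1 the EXOC7 call was lost and RAC1 fell under the odds limit (log2 odds ratio -0.986). With limma on the log2 ratio the RAC1 call was lost at a pseudocount of 0.5 (adjusted p = 0.424) and kept at 5 (0.0284). The list's median log2 odds ratio was -0.98, beside -0.07 over all events. The list was drawn up with results of these data known, so it is not independent evidence of a direction.

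RASL-seq, which names its lines, measured 141 of the 1891 exons by the same event. It counts the upstream junction of the exon against the skipping junction, with no length correction, on the plus strand. Over its 6 libraries these exons had a median inclusion of 2.69%, against 3.34% in RNA-seq, and 78 of 141 fell between 1 and 10%, with 42 below and 21 above. Of the 93 exons with 600 counts or more, 50 were between 1 and 10%, 32 below and 11 above. The rank correlation (Spearman) between the assays was only 0.349 over the 141 exons and 0.454 over the 93, given as a description, since the points share libraries and RNA-seq set their range.

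Single exons stood far apart between the assays, chosen here after their values were seen. TLK2, a chromatin kinase, had a 146 nt exon at 6.49% in RNA-seq and 61.6% of 2623 RASL-seq counts, at 62.9% in PC3E and 60.5% in GS689. SRSF3 (456 nt) was at 2.85% and 13.4% of 4732 counts. In the other direction, MORF4L1, a chromatin protein, had a 114 nt exon at 2.47% and 0.018% of 83517 counts. The assays read different junctions of an exon, and the part of that in these differences was not tested.

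**Figure D4:**
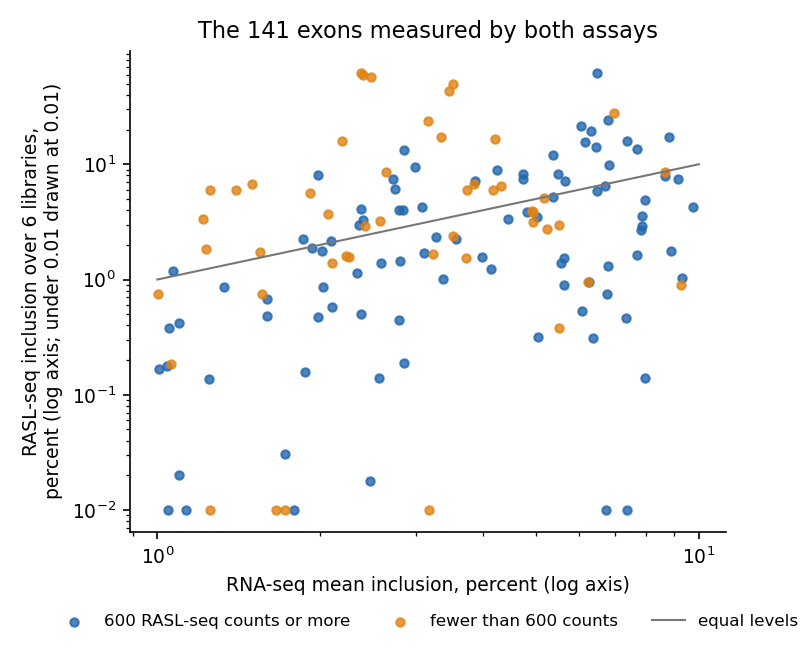
Inclusion in RASL-seq (vertical axis, percent over 6 libraries) against RNA-seq (horizontal axis, mean percent over 6 libraries), both on log axes, with 1 point for each of 141 exons, coloured by whether they have 600 RASL-seq counts or more, and a line of equal levels; values under 0.01% are drawn at 0.01%. Of the points, 78 lie between 1 and 10% in RASL-seq, 42 below and 21 above.

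Between the named lines, the exon of ERBIN rose in GS689 and those of NEDD4L, INF2 and RAC1 fell. A test needed a mean of 10 counts per library, 1 in each library and 10 of the rarer form, which 91 of the 141 exons met. By the same rule as above 8 were called, 3 higher and 5 lower in GS689. An unadjusted p under 0.05 was seen in 19 of 91, and in 227 of all 1124 events tested, a like share. The background over the 1124 RASL-seq events tested was 6.76%, with 2.67% higher and 4.09% lower, and 8 of 91 is near it. Without GS689 replicate 2 the count was 5, also 5 without GS689 replicate 3, and 9 without PC3E replicate 2. Of the called exons, 3 give a premature stop, 3 keep the frame, INF2 lies after the stop codon and 1 matched no single gene. RNA-seq chose the exons, and the difference between lines in RASL-seq played no part in the choice. An RNA-seq call did not always come with a RASL-seq call. The 94 nt exon of NDUFA3, chosen after its values were seen, was called in RNA-seq (log2 odds ratio -1.81, set 2 against set 1). In RASL-seq it had 13233 counts and was not called (log2 odds ratio -0.099, GS689 against PC3E).

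The 144 nt exon of ERBIN was included at 14.02, 8.66 and 12.4% in PC3E and at 29.1, 39.6 and 35.1% in GS689. The means were 11.7% ± 2.75 and 34.6% ± 5.26 (SD, n = 3 each), a log2 odds ratio of 2 (SE 0.31; limma-moderated adjusted p = 0.000235). The 60 nt exon of NEDD4L stood at 10.8, 15.7 and 8.57% in PC3E and at 3.13, 0 and 1.72% in GS689, with means of 11.7% ± 3.63 and 1.62% ± 1.57 (SD, n = 3 each). Its counts were low, at means of 72.7 and 94.0 per library, and the call was lost without GS689 replicate 2 (adjusted p = 0.0896). It was also lost with limma on the log2 ratio at a pseudocount of 0.5 (adjusted p = 0.149). The lines did not overlap in either exon.

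RAC1, with 42829 counts the deepest of the called exons, stood at 7.11, 5.17 and 6.02% in PC3E and at 2.86, 2.87 and 3.29% in GS689. Its means were 6.10% ± 0.97 and 3.01% ± 0.24 (SD, n = 3 each; log2 odds ratio -1.1, SE 0.17), and without PC3E replicate 1 the change fell under the odds limit (adjusted p = 0.00466). With limma on the log2 ratio the RAC1 call was lost at a pseudocount of 0.5 (adjusted p = 0.143) and kept at 5 (0.045). INF2, a formin that builds actin filaments, had an 84 nt exon at 11.3, 11.96 and 12.1% and at 3.55, 5.45 and 2.05%, with means of 11.8% ± 0.43 and 3.69% ± 1.70 (SD, n = 3 each). In both the lines were apart in every library. The INF2 call was lost without GS689 replicate 1 (adjusted p = 0.0582) or 3 (0.0653). In RNA-seq INF2 was not called, at 6.68, 8.77 and 6.56% in set 1 and 4.39, 3.66 and 2.97% in set 2 (log2 odds ratio -1.04, adjusted p = 0.147).

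Of the exons with a premature stop, that of TECR rose most clearly. TECR is the last enzyme of the very long chain fatty acid cycle, and its 67 nt exon stood at 1.86, 1.17 and 1.83% in PC3E and at 5.33, 5.64 and 5.72% in GS689. The means were 1.62% ± 0.39 and 5.56% ± 0.21 (SD, n = 3 each), a log2 odds ratio of 1.83 (SE 0.25; limma-moderated adjusted p = 0.000111). It kept its call without any 1 library. In RNA-seq the exon stood at 4.35, 1.32 and 2.85% in set 1 and at 5.37, 6.71 and 6.04% in set 2, called with a log2 odds ratio of 1.21, which fell to 0.85 without library 2 of set 1. MBNL1, a splicing regulator, had its 64 nt exon at 0.0803, 0.113 and 0.292% and at 0.372, 1.05 and 0.622%, means of 0.162% ± 0.11 and 0.682% ± 0.34 (SD, n = 3 each). That call was lost without any 1 of PC3E replicates 1 to 3 or GS689 replicates 2 and 3, with adjusted p up to 0.221. In RNA-seq it was not called, at 0.81, 1.21 and 1.61% in set 1 and 1.53, 2.55 and 1.86% in set 2 (log2 odds ratio 0.71, adjusted p = 0.493).

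FOXK2, a forkhead transcription factor, had a 410 nt exon with a premature stop at 4.19, 1.64 and 3.09% in PC3E, while GS689 had 0 inclusion counts of 608. Set against a floor of 3 counts for all of GS689, it was at least 5.96-fold lower there. The exact interval from counting error, with no floor, begins at 4.31-fold. The RASL-seq call was lost with limma on the log2 ratio at a pseudocount of 5 (adjusted p = 0.0569). Without PC3E replicate 1 the exon did not meet the count limits of the test. In RNA-seq the same exon stood at 5.12, 1.96 and 4.46% in set 1 and at 2.25, 0.939 and 0.805% in set 2, with overlapping sets. It was called there (adjusted p = 0.00378), and the call was lost without any 1 of 4 libraries, libraries 1 and 3 of set 1 and 2 and 3 of set 2, with adjusted p up to 0.207. With limma on the log2 ratio this RNA-seq call was lost at pseudocounts of 0.5 (adjusted p = 0.273) and 5 (0.0545). The 130 nt exon at chromosome 11, 118505640 to 118505769, which matched no single gene, stood at 2.01, 5.56 and 6.9% in PC3E and had 1 inclusion count of 458 in GS689, so the share was 21.6 times as high in PC3E (exact interval from counting error, 3.44 to 899). Leaving out PC3E replicate 3 ended its call (adjusted p = 0.0855), as did leaving out replicate 2 (0.0803) or 3 (0.0735) of GS689. In RNA-seq this exon stood at 4.25, 8.89 and 5.66% in set 1 and at 0.275, 0 and 0.535% in set 2 (log2 odds ratio -4.36, SE 1.25, adjusted p = 1.82e-05), and that call held in all 12 alternatives run. Only CD44 and MGLL among the exons named above fell further by that measure.

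**Figure D5:**
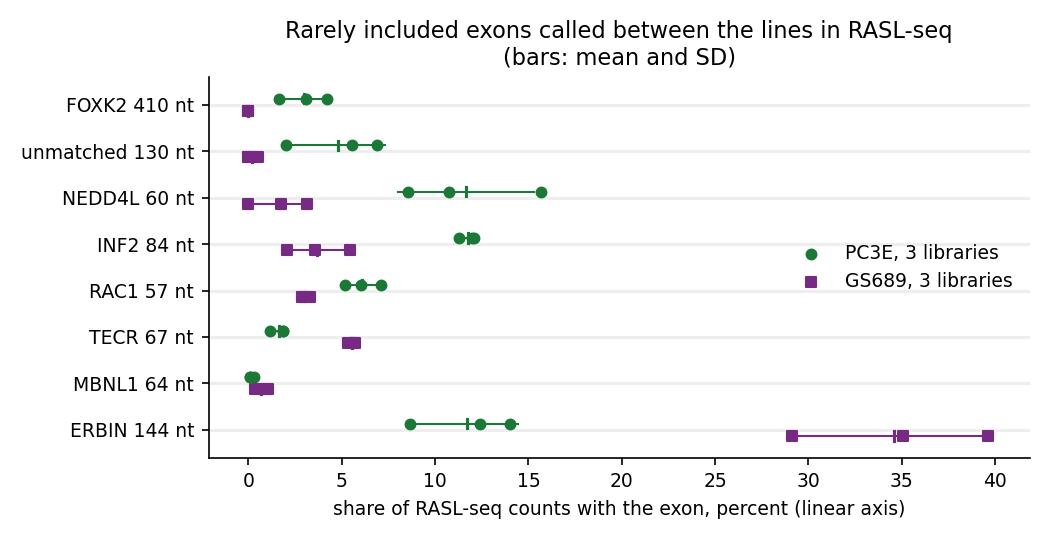
RASL-seq share of counts with the exon (horizontal axis, percent) for the 8 called exons, with 1 point per library, circles for PC3E and squares for GS689, and a bar for the mean and SD of 3 libraries. ERBIN, TECR and MBNL1 are higher in GS689, and RAC1, INF2, NEDD4L, FOXK2 and the unmatched 130 nt exon are higher in PC3E.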

How the data were processed

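For each of 2 prostate cancer lines there are 3 RNA-seq and 3 RASL-seq libraries. The submitters' processing notes name hg19 as the build and, without a role, the tools kallisto 0.43.0 and STAR 2.5.2a. The authors deposited 1 table per assay with several whole-number counts in each cell; per the file headers the RNA-seq table gives inclusion (I) and skipping (S) counts of numbered sets, with an effective length for each form. Inclusion is I divided by its length, over the sum of both so divided. All per-sample columns were used (0 left out). RASL-seq cells hold inclusion and skipping counts, and empty cells were read as 0.

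Names, coding status and sequences come from GENCODE 29, on another build, by matching chromosome, strand, exon length and both intron lengths in exactly 1 gene. Of 83528 events of the length range with 20 or more reads, 79648 matched; as a check, 4 did so when looked up on the opposite strand and 44 with 1 intron shifted by 7 nt. An exon was placed into the protein coding transcript with its skipping junction and the longest coding sequence.

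Events were fitted with a quasi-binomial model, 1 per event, with an F test and dispersions moderated by limma 3.58.1 (R 4.3.3) and held at 1 or above; odds ratios add 0.5 to each sum. P-values were adjusted by Benjamini-Hochberg over all events of an assay, and the test was tried on simulated data with known changes. By adjusted p alone, and at 1 assumed spread, it found 22% of 2-fold and 65% of 4-fold changes in RNA-seq. In RASL-seq it found 55 and 81%, so many changes of 2-fold size can be missed. Alternatives were other call rules, limma on log2 ratios, other depths and leaving out each library. Intervals cover counting error only.

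The exons and gene lists were chosen with earlier results of these data known. Named are up to 10 called exons in each direction by size among those matched to 1 gene, all called RASL-seq exons, the 14 most counted exons of the lists, and those next to the limits. From the ribosomal list, kinase genes that share the RPS prefix were left out. The list of decay factors is not reported here.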

Additional observations from a re-analysis of the deposited data

How the results depend on the processing

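The share of lengths divisible by 3 stayed between 37.4 and 40.0% under all its alternatives (depth, inclusion range, no length correction, every event, exons between coding exons), and at 38.7% or below without any 1 library. Added after seeing the data, applying the limits only to the most counted event of each exon gave 38.5% and leaving out exons with another event above 10% gave 38.1%. The premature share of 73.2% was 76.9% with any stop before the annotated one, 68.6% over every coding transcript (3651 placements) and 72.3 to 74.6% otherwise.

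Of the 1891 exons 76 were called between the RNA-seq sets. A minimum of 5 percentage points gave 43, limma on the log2 ratio with a pseudocount of 0.5 gave 30 and with 5 gave 99, and leaving out 1 library gave 46 to 113. Over all events the 822 calls became 5117 with limma at a pseudocount of 5 and 525 to 977 without 1 library, with 533 without library 2 and 525 without library 3 of set 2. With 1 exon per skipping junction, added after seeing the data, 65 of 1605 were called. In RASL-seq the 8 calls became 3 with a minimum of 5 percentage points, 4 with limma at 0.5, and 5 to 9 without 1 library; the 76 over all events became 33 with limma at 0.5 and 47 to 89 without 1 library, with 47 without PC3E replicate 3 and 49 without GS689 replicate 3. With the replicate block 10 of the exons and 92 of all events were called. Deviations of same-numbered RASL-seq libraries correlated at 0.037, 0.0038 and 0.034, and those of differently numbered ones at -0.101 to 0.0599. No pairing by number was seen in this, which does not show that the samples were unpaired. No paired analysis was possible in RNA-seq because its values carry no replicate numbers. Of 39 named exons in RNA-seq, 10 lost a call over 502 alternative values and 1, the uncalled 276 nt exon of SRSF7, changed direction (log2 odds ratio -0.0676 without library 3 of set 1, up to 0.26 without another); in RASL-seq 7 of 8 lost one and 0 reversed over 103. The cause was not tested.

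Depth limits the lowest levels, since 14 to 15167 inclusion reads stand behind an exon over 6 libraries, and a missing call does not show that the sets were alike. The decay of transcripts was not measured, so a premature stop is read from annotation alone.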
